A study of Mus musculus with 2 samples.

Results

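Cardiomyocytes made up 92 of the 13502 barcodes kept as cells from these hearts. Whether each barcode was an intact cell was not tested, and most of the 92 held little nuclear or mitochondrial RNA (values are given with Malat1), so shares of cells are shares of barcodes. They were chosen on measured values. A barcode was kept when it held 200 to 8000 genes and no more than 20% mitochondrial UMIs (molecular tags by which every captured transcript is counted a single time). It was called a cardiomyocyte when the 9 contractile genes Myh6, Myh7, Tnnt2, Tnni1, Tnni3, Actc1, Myl2, Myl3 and Myl7 together made up at least 5% of its non-mitochondrial UMIs and when it had no UMI of Pecam1 (endothelium) or Ptprc (leukocytes). This gave 78 of 4991 cells at postnatal day 1 (P1), or 1.56% (95% interval 1.24 to 1.95), and 14 of 8511 at postnatal day 7 (P7), or 0.165% (0.0900 to 0.276). The study states that cardiomyocytes were underrepresented, through low survival and a size unsuited to the cell sorting. These shares are thus of recovered barcodes and not of the heart. Below the gene minimum, 22 barcodes at P1 and 0 at P7 reached the 5% share, among 2253 and 160 barcodes. What set the shares apart was not tested.

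Live cells of intact mouse hearts were profiled by droplet single cell RNA-seq, with 1 library at P1 and 1 at P7, each from 3 hearts of a single litter pooled before digestion. Hearts of both ages were minced, digested with Collagenase II (20 min at P1, 45 min at P7), filtered, treated to lyse red blood cells and sorted for live cells with 7-AAD. No treatment or genetic change is named for either group. The labels give no strain. With 1 library per age there is no replicate and no test between ages. Age, litter and digestion time cannot be told apart, and neither can sex, since the P1 cells carried the female transcript Xist and the P7 cells the Y-linked Ddx3y. All intervals are exact 95% intervals for counting error only. Levels are CPM, the count of a gene scaled to 1e+06 of the summed non-mitochondrial UMIs of a group of cells, and ratios are log2 ratios of CPM, P1 over P7, with 0.5 counts added to each sum.

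Cardiomyocytes are the contractile cells of the heart wall. Their sarcomeres slide actin past myosin, calcium released from the sarcoplasmic reticulum through the ryanodine receptor triggers each beat, and the pump SERCA2 (Atp2a2) returns it. Around birth mouse cardiomyocytes replace fetal by adult contractile isoforms, leave the cell cycle and turn from glycolysis to fatty acid oxidation.

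The cardiomyocytes were sparse in UMIs. They summed to 503687 UMIs at P1 and 49580 at P7, of which 489157 and 49079 were not mitochondrial, so that 3 counts corresponded to 6.13 CPM at P1 and 61.1 CPM at P7. The P1 barcodes held between 517 and 46118 UMIs, with a median of 4342, and the P7 barcodes between 507 and 11558, with a median of 1969.5. All other cells had a median of 10972 UMIs at P1 and 10131 at P7. Fewer than 1000 UMIs were found in 11 P1 and 5 P7 cardiomyocytes. The libraries shared 18 barcode sequences, of which 1 belonged to a cardiomyocyte, at P1.

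The contractile share was continuous around its limit. It had a median of 8.18% at P1 and 7.03% at P7 and a highest value of 12.5% and 10.5%, so no cell reached 20%. Just inside the limit, at 5% to 6%, were 6 P1 and 5 P7 barcodes, and just outside, at 4% to 5%, 4 and 2. Between 1% and 5% there were 15 barcodes at P1 and 13 at P7. The condition on Pecam1 and Ptprc alone removed 1 barcode at each age.

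Most of the cardiac genes checked that the choice did not use were also high. Tnnc1 (cardiac troponin C) reached 9124 CPM (8858 to 9396) at P1 and 13020 CPM (12030 to 14070) at P7, Pln (phospholamban, the inhibitor of SERCA2) 4722 and 5685 CPM, Actn2 (α-actinin of the Z-disc) 1022 and 856 CPM, Mybpc3 (cardiac myosin-binding protein C) 564 and 509 CPM and Nkx2-5 (a cardiac transcription factor) 307 and 245 CPM. In Ptprc-positive cells of the same libraries, which should lack these proteins and had medians of 7635.5 UMIs at P1 and 7074 at P7, the levels of Tnnc1 were 16.9 and 23.6 CPM and those of Nkx2-5 0.725 and 0.162 CPM. Ttn, Ryr2 and Atp2a2 were checked too and were less even. Ttn stood at 2097 and 306 CPM, with 74.3% of its P1 UMIs in 1 barcode. Ryr2 had 88 UMIs at P1 and 1 at P7. Atp2a2 was found in 32 of 78 P1 and 6 of 14 P7 barcodes.

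**Figure D1:**
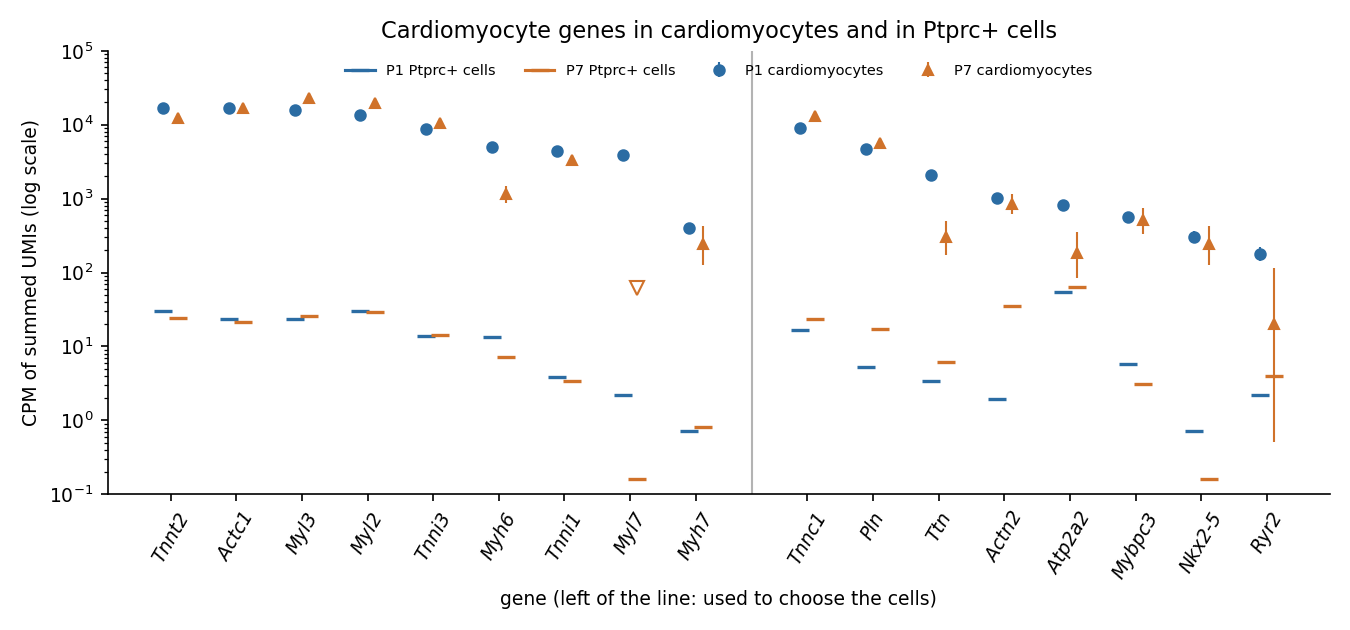
CPM of summed UMIs (log axis) of 9 genes that chose the cardiomyocytes and 8 that did not, in the cardiomyocytes of P1 (circles) and P7 (filled triangles) with exact Poisson 95% intervals, and in Ptprc-positive cells of the same library (dashes). The open triangle marks 3 counts, or 61.1 CPM, for Myl7 at P7, which had 0 UMIs; Tnnc1 at 9124 and 13020 CPM lies far above its dashes, whereas Atp2a2 at P7, at 183 CPM, lies near them.

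Markers of other cell types were low but present. Of 8 leukocyte markers 3 had UMIs at P1 and 4 at P7, with 9 UMIs in all at each age; 69 of 78 P1 and 9 of 14 P7 barcodes had none, and the highest reached 1965 and 4630 CPM. Cd68, C1qb, Csf1r and Cd74 were at 0 at both ages, and of the epicardial markers Upk3b, Upk1b, Msln and Bnc1 had none, while Wt1 had 1 UMI, at P1. Of 10 skeletal muscle genes 4 had UMIs at P1, of which Ckm, which the heart also uses, gave 1871 of 1881 UMIs, and Ckm alone had UMIs at P7; Myh3, Myh1, Myh4, Tnnc2, Myog and Myod1 were at 0 at both ages. All 8 endothelial markers had UMIs at P1 and 3 of 8 at P7, with a summed level per cell of 0 to 6742 CPM (median 414) at P1 and 174 to 5941 CPM (median 1146) at P7. Fabp4, the endothelial fatty acid binding protein, gave most of it, at 419 and 591 CPM against 1170 and 1593 CPM in Ptprc-positive cells. The fibroblast markers summed to a median of 184 CPM at P1 and 1202 CPM at P7, the mural markers to 847 and 883 CPM. A single P1 barcode of 4934 UMIs held 151 fibroblast UMIs, or 60.9% of all those in P1 cardiomyocytes, beside 120 Myl7 UMIs and 97 Nppa UMIs. No doublet caller was applied.

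Most of the cardiomyocytes were poor in nuclear RNA. Malat1, a long noncoding RNA that is retained in the nucleus (ENSMUSG00000092341, chromosome 19, 5795690 to 5802672 of GRCm38), stood at 2719 CPM (2575 to 2869) in the P1 and 3321 CPM (2831 to 3872) in the P7 cardiomyocytes, against 18150 and 19611 CPM in all other cells. A single P7 barcode held 87.7% of the P7 UMIs of Malat1. The median barcode had 291 CPM at P1 and 702 CPM at P7. With every cell thinned to 1000 UMIs, Malat1 was detected in 40.3% (28.5 to 53.0) of 67 P1 cardiomyocytes and in 94.9% (94.2 to 95.5) of the other P1 cells; 11 and 298 shallower cells were left out, and unthinned the shares were 74.4% and 98.8%. At P7 the thinned shares were 33.3% (7.49 to 70.1) of 9 cardiomyocytes and 95.8% of the other cells, with 5 and 404 cells left out, and the unthinned shares 71.4% and 99.2%.

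Xist was scarce as well. This RNA coats the inactive X chromosome (chromosome X, 103460366 to 103483254). It was found in 7 of 78 P1 cardiomyocytes (8.97%) and in 90.4% of the other P1 cells, and after thinning in 2 of 67 (2.99%, 0.364 to 10.4) against 59.2% (57.7 to 60.6). The 7 barcodes held 54 UMIs, or 110 CPM, where the other cells stood at 1014 CPM. Neat1, which is also nuclear, was found in 3 P1 cardiomyocytes (3.85%) and in 46.0% of the other cells.

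The mitochondrial share was low in the same cells. Its median was 0.531% in P1 and 1.30% in P7 cardiomyocytes and 3.096% and 3.03% in all other cells. Cardiomyocytes with under 1% mitochondrial UMIs that were also poor in Malat1 made up 48 of 78 (61.5%) at P1 and 6 of 14 (42.9%) at P7, against 1.16% and 1.66% of the other cells. A barcode was called Malat1-rich here with at least 5 UMIs and 2000 CPM of Malat1, a split chosen after the values had been seen. By it 12 of 78 P1 cardiomyocytes and 1 of 14 at P7 were Malat1-rich, with 8 and 5 barcodes within 2-fold of the limit. Of the 66 Malat1-poor P1 barcodes 29 had at least 5000 UMIs, and 28 of those 29 had no Xist UMI. What makes these barcodes poor in nuclear RNA was not tested.

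**Figure D2:**
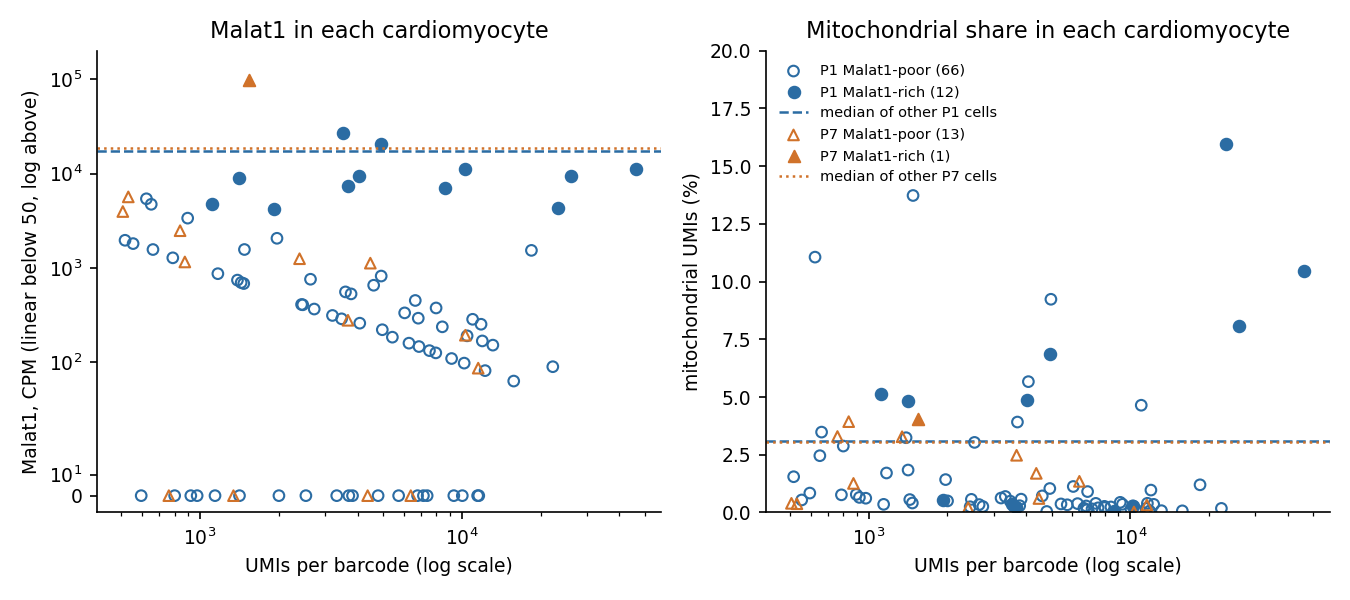
Malat1 CPM (left) and mitochondrial percent of UMIs (right) against UMIs per barcode (log axis) for the 78 P1 (circles) and 14 P7 (triangles) cardiomyocytes; filled symbols are Malat1-rich and lines are medians of all other cells. The 66 open circles lie below the line at 17361 CPM. Of them 20 have no Malat1 UMI and lie at 0, and most others fall along diagonals on which a barcode has 1, 2 or 3 UMIs of Malat1.

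The Malat1-rich and Malat1-poor cardiomyocytes of P1 were then compared as summed UMIs. The 12 Malat1-rich barcodes held 26.8% of the P1 cardiomyocyte UMIs, and the deepest barcode of 46118 UMIs alone supplied 33.4% of the non-mitochondrial UMIs of the Malat1-rich sum. Over 2857 genes with at least 20 summed UMIs, which leaves out the 9 contractile genes of the choice, 310 (10.9%) were at least 2-fold higher in the Malat1-rich and 174 (6.09%) at least 2-fold higher in the Malat1-poor barcodes, with a median log2 ratio of -0.02. The comparison is within 1 library and the cells were split by a measured value, so its ratios are descriptions.

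Most calcium handling genes were higher in the Malat1-rich barcodes. Of the 12 calcium handling genes measured, 7 were at least 2-fold higher and none was 2-fold lower, with a median log2 ratio of 1.68. Atp2a2 (SERCA2, chromosome 5, 122453513 to 122502225) stood at 2937 CPM in the Malat1-rich and 98.5 CPM in the Malat1-poor barcodes, a log2 ratio of 4.88 (4.40 to 5.44). The level in the Malat1-poor barcodes was close to the 92.7 CPM of all other P1 cells. Casq2 (calsequestrin, the calcium store) had 46 UMIs in the Malat1-rich and 11 in the Malat1-poor barcodes, Hrc (histidine-rich calcium binding protein) 30 and 1, and Ryr2 (the ryanodine receptor) 53 and 35. Those under 2-fold were Pln, at 5194 and 4563 CPM (log2 ratio 0.19, 0.05 to 0.32), Jph2 (-0.18), S100a1 (-0.17), Camk2d (0.94) and Srl (0.996). Of the ion channel and pump genes 5 of 5 measured were at least 2-fold higher, among them Atp1b1 (the β subunit of an ion pump, 461 against 57.5 CPM).

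A list of 38 genes for proteins made at the endoplasmic reticulum was compiled after these genes had been seen to lead. Its counts therefore describe that choice and lend no weight to the other lists. Of 23 measured, 20 were at least 2-fold higher in the Malat1-rich barcodes and none in the Malat1-poor, with a median of 2.43. Atrial genes were higher in 4 of 5 (median 2.41) and fibroblast markers in 5 of 5 (2.53). Among the 12 were 2 of the 4 barcodes with Myl7 and no Myl2, of which 1 was the barcode with 151 fibroblast UMIs. Without that barcode fibroblast markers had 1 measured gene, at -0.78, and the list of proteins made at the endoplasmic reticulum 20 of 23 (2.39). Together the 38 genes stood at 7055 CPM in the Malat1-rich barcodes, 1592 CPM in the Malat1-poor and 23272 CPM in all other P1 cells. Examples were Hsp90b1 (a chaperone of the reticulum, 30 and 8 UMIs), Psap (prosaposin of the lysosome, 19 and 7 UMIs) and Bsg (basigin, a membrane glycoprotein, 866 and 192 CPM). Without the deepest barcode the counts were 15 of 17 for this list (median 1.95) and 7 of 11 for calcium handling (1.36), and Atp2a2 stood at a log2 ratio of 4.66.

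Respiratory chain and ribosomal protein genes stayed within 2-fold. None of 78 nuclear-coded respiratory chain genes was 2-fold higher on either side, with a median of -0.08 and a summed level of 123053 and 124168 CPM, against 23024 CPM in the other P1 cells. None of 80 cytosolic ribosomal protein genes was either, with a median of -0.41. Contractile genes differed among themselves. Ttn (titin, the molecular spring of the sarcomere, chromosome 2, 76703980 to 76982547) stood at 7573 CPM in the Malat1-rich and 246 CPM in the Malat1-poor barcodes, a log2 ratio of 4.94 (4.63 to 5.27), with 81.4% of the Malat1-rich UMIs in the deepest barcode and a ratio of 3.098 without it. Myh6 (α-myosin heavy chain) stood at 9627 and 3354 CPM, a log2 ratio of 1.52 that was 0.78 without the deepest barcode, Tnnc1 at 8535 and 9323 CPM and Myl2 (ventricular light chain) at 10267 and 14477 CPM. Mb (myoglobin, the oxygen store) was lower in the Malat1-rich barcodes, at 1723 and 4251 CPM (log2 ratio -1.30, -1.52 to -1.10), but under 2-fold without the deepest barcode (-0.96).

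Longer transcripts were higher in the Malat1-rich barcodes. The median log2 ratio was -0.16 for 392 genes whose longest coding transcript is under 1000 bases, -0.14 for 917 of 1000 to 2000 bases, 0.01 for 966 of 2000 to 4000 bases, 0.38 for 453 of 4000 to 8000 bases and 0.89 for 108 longer genes. Transcripts over 8000 bases took 3.40% of the UMIs in the Malat1-rich barcodes, 1.28% in the Malat1-poor and 3.69% in all other P1 cells, and 0.852% in the Malat1-poor barcodes of P7. Ttn, at 106824 bases, gave 936 Malat1-rich UMIs, of which 81.4% lay in the deepest barcode. The values by length were not recomputed without that barcode.

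Genes of the G2 and M phases went the other way. Of 9 measured, 8 were at least 2-fold higher in the Malat1-poor barcodes and none in the Malat1-rich (median log2 ratio -3.79, or -1.58 with sums of 0 set to 3 counts). Of the 9, 5 had no UMI in the Malat1-rich barcodes, so they met the minimum of 20 UMIs through the Malat1-poor alone. Birc5 (survivin, of the mitotic spindle) had 38 UMIs in the Malat1-poor barcodes and 0 in the Malat1-rich, and Ube2c (which marks cyclins for destruction in mitosis) 98 and 3.

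These UMIs came from a few barcodes. The 38 genes of the G2 and M phase list summed to 635 UMIs in the P1 cardiomyocytes, or 1298 CPM, where all other P1 cells had 1736 CPM, and 59.2% of them lay in 3 barcodes while 27 barcodes had none. The first had 195 such UMIs among 12279, with 28 of Ube2c, 11 of Birc5, 8 of Cdk1 (the kinase that drives entry into mitosis) and 7 of Top2a (topoisomerase II of condensing chromosomes), the second 118 among 7137 and the third 63 among 4971. They held 1, 0 and 1 UMIs of Malat1, and their contractile genes took 7.80%, 8.17% and 6.69% of the non-mitochondrial UMIs. Mki67, also on the list, had 0 UMIs in each of them. At least 10 UMIs of the list were found in 9 of 78 P1 cardiomyocytes (11.5%, 5.41 to 20.8), all 9 Malat1-poor, and in 1 of 14 at P7 (7.14%, 0.181 to 33.9), which had 21 among 4474. The shares in all other cells, which are deeper, were 19.7% and 15.7%. Split by Malat1, the P1 counts were 0 of 12 Malat1-rich (0 to 26.5%) and 9 of 66 Malat1-poor barcodes (13.6%, 6.43 to 24.3), with intervals that overlap. The S phase list summed to 343 CPM at P1 and 306 CPM at P7, where other cells had 883 and 860 CPM.

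**Figure D3:**
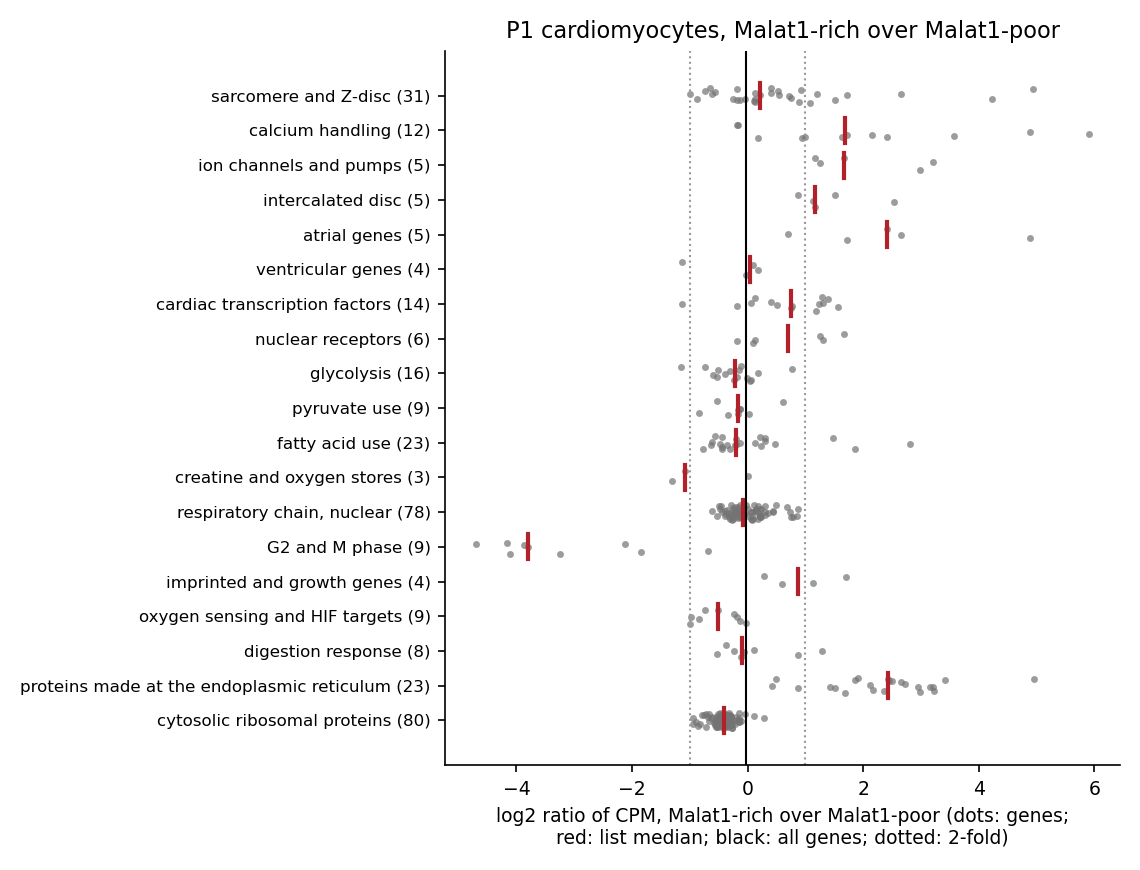
Log2 ratio of CPM, Malat1-rich over Malat1-poor P1 cardiomyocytes, for the measured genes (dots) of 19 lists, with the number measured in parentheses, list medians in red, the median of all genes as a black line and 2-fold as dotted lines. Calcium handling (median 1.68) and proteins made at the endoplasmic reticulum (2.43, a list compiled after its genes had been seen to lead) lie to the right, G2 and M phase genes (-3.79) to the left, and the respiratory chain (-0.08) at the line.

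The 9 contractile genes chose the cells, so their levels are descriptions. The level of Tnnt2 (cardiac troponin T) was 16811 CPM at P1 and 12347 CPM at P7. Actc1 (cardiac α-actin, close in sequence to Acta1 and Acta2) stood at 16635 and 16789 CPM, Myl3 (ventricular essential light chain) at 15549 and 22922 CPM, Myl2 at 13413 and 19397 CPM and Tnni3 (cardiac troponin I) at 8809 and 10514 CPM. Per barcode Tnnt2 ran from 7562 to 56723 CPM (median 16682) at P1 and from 5416 to 18506 CPM (median 11496) at P7, so the ages overlapped. Tnni1 (slow skeletal troponin I, the fetal form) was at 4379 and 3362 CPM. It made up 33.2% (32.0 to 34.4) of the Tnni1 and Tnni3 UMIs at P1 and 24.2% (21.1 to 27.6) at P7. The median barcode had a Tnni1 share of 34.0% at P1, with a range of 0 to 78.6%, and of 21.2% at P7, with a range of 0 to 60%.

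Myosin heavy chains differed in level. The 2416 UMIs of Myh6 at P1 made 4939 CPM (4744 to 5140) and the 56 at P7 made 1141 CPM (862 to 1482), and it was found in 73 of 78 and 8 of 14 barcodes. Its neighbour Myh7 (β-myosin heavy chain, the fetal ventricular form) had 194 and 12 UMIs, or 397 and 245 CPM. Both lie on chromosome 14, Myh6 at 54941921 to 54966927 and Myh7 at 54970684 to 54994626, and share much coding sequence, so reads that fit either could be lost. The Myh7 share of the 2 genes was 7.43% (6.46 to 8.51) at P1 and 17.6% (9.46 to 28.8) at P7. At P7 it rests on 68 UMIs.

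Myl7, the atrial regulatory light chain (ENSMUSG00000020469, chromosome 11, 5896637 to 5898782), had 1899 UMIs at P1 (3882 CPM, interval 3710 to 4061) and 0 at P7, where 3 counts would be 61.1 CPM, 63.5-fold below the P1 level. The log2 ratio had a lower limit of 5.69. Its share of the Myl7 and Myl2 UMIs was 22.4% (21.6 to 23.4) at P1 and 0 of 952 UMIs at P7, which allows 0.387%. The P1 value came from few cells. At P1 50 of 78 barcodes had no Myl7 UMI, 24 had some but more Myl2, and 4 had Myl7 and no Myl2 UMI. The 4 barcodes held 860, 372, 464 and 120 Myl7 UMIs, or 1816 of 1899, and stood at 36062 CPM of Myl7 against 189 CPM in the other 74. The barcode with 120 was also the one with 151 fibroblast UMIs. They also held 902 of 1201 UMIs of Myl4 (the atrial essential light chain), 199 of 224 of Sln (sarcolipin, the atrial inhibitor of SERCA) and 380 of 606 of Nppa (atrial natriuretic peptide, present in 2 of the 4 barcodes). Mb was at 119 CPM in these 4 barcodes and 4013 CPM in the other 74, and Pln at 774 and 5176 CPM. The 4 barcodes thus carried the atrial light chains and the other 74 mainly the ventricular one.

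At P7 all 14 barcodes had Myl2 and none had Myl7. Sln had 1 UMI there, Myl4 18 UMIs, of which 13 were in 1 barcode, and Nppa 5 UMIs in 1 barcode. In all other P7 cells Myl7 stood at 2.86 CPM and Myl2 at 69.4 CPM, and at P1 at 6.14 and 57.8 CPM. Those cells include barcodes just under the limit of contractile share, and background RNA was not estimated.

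**Figure D4:**
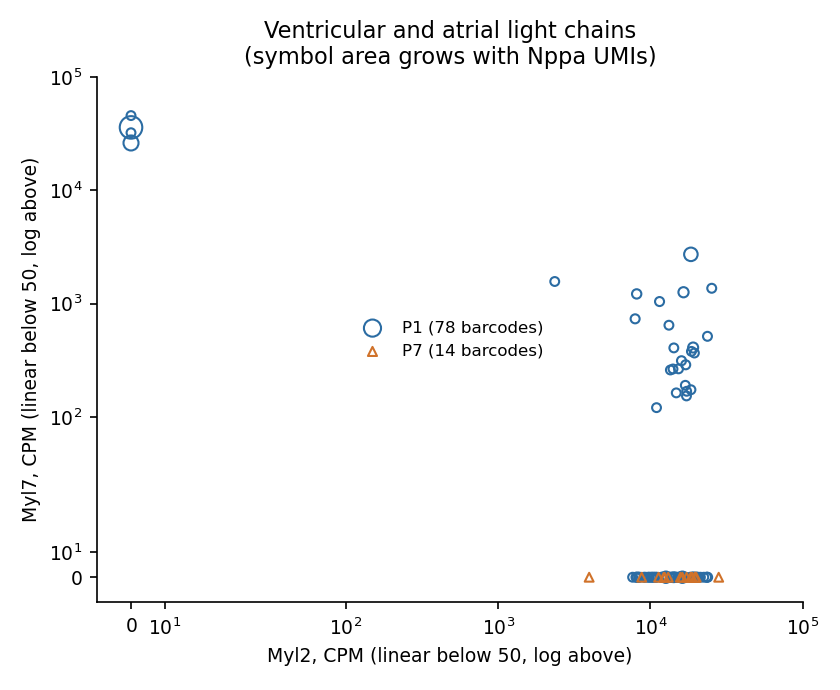
Myl7 against Myl2 in CPM for the 78 P1 (circles) and 14 P7 (triangles) cardiomyocytes, on axes that are linear below 50 and logarithmic above, with symbol area growing with Nppa UMIs. At the left, 4 P1 barcodes have Myl7 and no Myl2; the 14 P7 barcodes lie on the lower axis.

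Between ages, 3024 genes outside the choice had at least 20 summed UMIs. Of these 494 (16.3%) were at least 2-fold higher at P1 and 149 (4.93%) at least 2-fold higher at P7, with a median log2 ratio of 0.10. The depth was unequal, since 215 of the genes had no UMI at P7 and a gene with 20 UMIs at P1 then passes by the counts added. With sums of 0 set to 3 counts, an alternative chosen after seeing the data, 286 genes (9.46%) were 2-fold higher at P1. Each list is therefore given in both ways where it differs, and its counts are to be read beside these shares of all genes.

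Among genes with 50 UMIs or more in either library, the largest ratios towards P1 were atrial, or rested on few barcodes or on 0 counts at P7. Beside Myl7 they were Ddc (dopa decarboxylase, 94 UMIs at P1 and 0 at P7, 3.14-fold above 3 counts), Gpx3 (a secreted glutathione peroxidase, 91 and 0, 3.04-fold), Acta1 (skeletal α-actin, 273 and 1), Atp1b1 (78 and 0, 2.61-fold), Sln (224 and 1, log2 ratio 3.91, 2.00 to 9.80), Clu (clusterin, 71 and 0, 2.38-fold), Cdkn2d (a cell cycle inhibitor, 66 and 0, 2.21-fold), Cbx5 (heterochromatin protein 1α, 62 and 0, 2.07-fold) and Chchd4 (mitochondrial import, 60 and 0, 2.01-fold). These folds set the P1 level against 3 counts at P7 and leave out counting error at P1. The lower limits of the log2 ratio were 1.33 for Ddc, 1.28 for Gpx3 and 1.05 for Atp1b1. Those of Clu, Cdkn2d, Cbx5 and Chchd4 were 0.91, 0.80, 0.71 and 0.66, under 2-fold. A single barcode held 86.4% of the Acta1 UMIs, with a log2 ratio of 4.19 (2.29 to 10.1). Cdkn2d, Cbx5 and Chchd4 were spread over 31, 34 and 32 P1 barcodes. Gpx3 stood at 186 CPM in P1 cardiomyocytes and at 324 CPM in all other P1 cells.

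Towards P7 the 10 largest ratios by the same minimum, which most of these genes met by their P1 sum, were smaller. The level of Mb was 3612 CPM (3446 to 3785) at P1 against 8497 CPM (7700 to 9352) at P7 (log2 ratio -1.24, -1.39 to -1.08), and it was found in 68 of 78 and 13 of 14 barcodes. The median barcode had 3600 CPM at P1 against 6884 CPM at P7, and the ranges of 0 to 10811 and 0 to 12014 CPM overlapped. Cox7a1, the heart and muscle form of a cytochrome oxidase subunit, stood at 392 and 876 CPM (-1.17, -1.64 to -0.65), Rpl26 (ribosomal protein) at 869 and 2078 CPM (-1.26, -1.57 to -0.93) and Fitm1 (lipid droplet formation) at 235 and 570 CPM (-1.30, -1.88 to -0.63). Rpl26 was higher at P7 in all other cells too, at 1004 CPM at P1 and 1633 CPM at P7. Tsc22d1, Fahd1, Ppp1r11, Urod, Tcea3 and Tomm7 completed the 10, with 12 to 24 UMIs each at P7 and log2 ratios of -1.49 to -1.22. Genes with fewer UMIs had larger ratios, such as Dcn (22 and 13 UMIs, -2.58, -3.61 to -1.45), and of the 10 only Rpl26 and Mb had 50 UMIs at P7.

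Sarcomere and Z-disc genes outside the choice were higher at P1 in 7 and higher at P7 in 1 of 31 measured (median 0.27), beside 16.3% and 4.93% of all genes, or in 6 and 1 with sums of 0 set to 3 counts. Without the 3 deepest P1 barcodes they were higher in 3 and 0 of 30, beside 15.1% and 4.85% of all genes. The 7 included Ttn at 2097 and 306 CPM (2.73, 2.05 to 3.62), Myl4 and Acta1. Ttn was carried by 1 barcode, which held 762 of 1026 P1 UMIs, and its ratio was -0.39 without the 3 deepest P1 barcodes. Myoz2 (calsarcin of the Z-disc) was the gene higher at P7, at 1351 and 2853 CPM (-1.08, -1.34 to -0.80). Actn2 (0.24, -0.20 to 0.75), Mybpc3 (0.12, -0.44 to 0.80) and Des (desmin, 0.18, -0.23 to 0.64) had intervals that held 0.

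Calcium handling genes were at least 2-fold higher at P1 in 8 of 13 measured and in none at P7, beside 16.3% and 4.93% of all genes, with a median of 1.94. With sums of 0 set to 3 counts this became 6 of 13 and 0.40, beside 9.46% of all genes. Sln was 1 of them, Ryr2 had 88 and 1 UMIs (2.57, 0.63 to 8.46), and Casq2 57 and 1 (1.94, -0.02 to 7.84). Atp2a2 stood at 816 and 183 CPM (2.08, 1.21 to 3.29), but 363 of its 399 P1 UMIs lay in the 12 Malat1-rich barcodes, and among Malat1-poor barcodes the ratio was -0.84. Without the 3 deepest P1 barcodes it was -1.02, and 5 of 10 calcium genes were then higher at P1 and 1 at P7, with a median of 0.69. Pln stood at 4722 and 5685 CPM (-0.27, -0.45 to -0.08). Malat1-rich barcodes made up 26.8% of the P1 and 3.104% of the P7 cardiomyocyte UMIs. Among Malat1-poor barcodes alone 5 of 9 calcium genes were higher at P1 and none at P7, with a median of 1.45, beside 15.8% of all genes higher at P1. This count is given only with 0.5 counts added. The 80 Malat1-poor UMIs of Sln at P1 lay, as 42 and 38, in barcodes with Myl7 and no Myl2.

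Among atrial genes 4 of 5 measured were at least 2-fold higher at P1 (median 3.47), beside 16.3% of all genes, namely Nppa (606 and 5 UMIs, 3.47, 2.37 to 5.23), Sln, Myl4 (2.70, 2.08 to 3.50) and Pam (181 and 1 UMIs, 3.60, 1.69 to 9.49, an enzyme that matures peptide hormones and is abundant in atrial granules). Pam stood at 370 CPM in P1 cardiomyocytes and at 341 and 466 CPM in all other P1 and P7 cells. A single barcode held 56.9% of its P1 UMIs. In the 74 P1 barcodes with more Myl2 than Myl7, 2 of 4 atrial genes were, beside 15.9% of all genes. Ventricular genes were level: none of 5 was higher at P1 and 1, Kcnip2 with 18 and 4 UMIs, higher at P7 (median -0.27), beside 16.3% and 4.93% of all genes. Nppb, the other natriuretic peptide, had 30 UMIs at P1, of which 56.7% in 1 barcode, and 1 at P7 (1.03, -0.999 to 6.94).

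Regulators were near the limit of detection. Of 14 cardiac transcription factor genes 3 were at least 2-fold higher at P1 (Tbx20, Myocd and Smyd1), beside 16.3% of all genes. With sums of 0 set to 3 counts 1 was, beside 9.46% of all genes, which was Smyd1 (a muscle methyltransferase, 112 and 3 UMIs, 1.69, 0.32 to 4.205). Nkx2-5 was level, at 307 and 245 CPM (0.27, -0.52 to 1.31). Of 6 nuclear receptor and coactivator genes 4 were called, Esrra, Ppargc1a, Klf9 and Nr3c1, all with 0 UMIs at P7, and with sums of 0 set to 3 counts none was. Intercalated disc genes numbered 5 and ion channel and pump genes 6, with 1 and 2 higher at P1 and 0 and 1 at P7, beside 16.3% and 4.93% of all genes. For Cdh2 (N-cadherin), Gja1 (connexin 43) and Pkp2 (plakophilin 2) the P7 sums were 2, 1 and 5 UMIs.

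**Figure D5:**
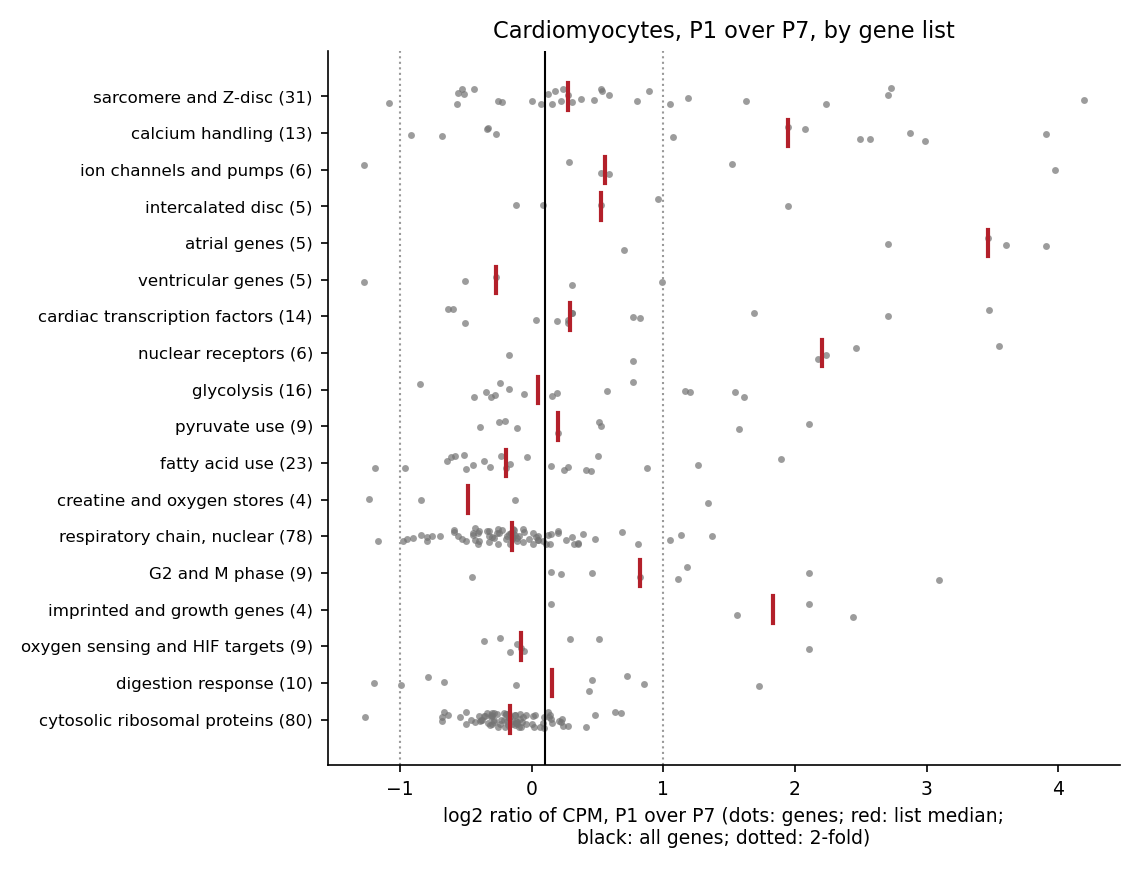
Log2 ratio of CPM, P1 over P7, in cardiomyocytes for the measured genes (dots) of 18 lists, with the number measured in parentheses, list medians in red, the median of all genes as a black line and 2-fold as dotted lines. Atrial genes (median 3.47) and calcium handling (1.94, or 0.40 with sums of 0 set to 3 counts) lie to the right, and respiratory chain (-0.15) and ribosomal protein genes (-0.17) cluster near 0.

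Most genes of energy metabolism could be measured. Of 78 nuclear-coded respiratory chain genes 3 were at least 2-fold higher at P1, Ndufs1, Ndufc2 and Sdha, and 1 at P7, Cox7a1 (median -0.15), beside 16.3% and 4.93% of all genes. Of 23 fatty acid genes 2 were higher at P1 and 1 at P7, beside 16.3% and 4.93% of all genes, with a median of -0.20. Those at P1 were Lpl (lipoprotein lipase, 92 and 2 UMIs, log2 ratio 1.89, 0.31 to 5.27) and Acot2 (107 and 4), and that at P7 was Cpt2 (41 and 9). Lpl stood at 188 and 40.8 CPM in cardiomyocytes and higher, at 567 and 420 CPM, in all other cells. Fabp3, the heart fatty acid binding protein, was just under 2-fold higher at P7, at 10393 CPM against 20253 CPM (log2 ratio -0.96, -1.06 to -0.86). Per barcode it ran from 1219 to 27345 CPM (median 9813) at P1 and from 0 to 32943 CPM (median 16191) at P7, so the ages overlapped. Glycolysis genes had 4 of 16 higher at P1 and none at P7, beside 16.3% and 4.93% of all genes, with a median of 0.05. The 4 were Gpi1 (818 and 346 CPM, 1.199, 0.54 to 2.03), Pgam1 (106 and 3 UMIs, 1.61, 0.24 to 4.13), Pfkp (43 and 1, 1.54, -0.45 to 7.45) and Pfkl (33 and 1, 1.16, -0.85 to 7.07). Ptprc-positive cells also had Gpi1, at 399 and 294 CPM, and Pgam1, at 257 and 201 CPM. The muscle enolase Eno3 stood at 1826 and 2465 CPM (-0.44, -0.71 to -0.15). Of 4 genes of creatine and oxygen stores 1 was higher at each age, beside 16.3% and 4.93% of all genes. They were Ckb (brain creatine kinase, 333 and 122 CPM) at P1 and Mb at P7, and Ckm (muscle creatine kinase) was at 3825 and 4177 CPM (-0.13, -0.34 to 0.09).

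The general forms of 3 cytochrome oxidase subunits had smaller shares of summed UMIs at P7 than at P1, although 2 of the 3 were the majority at both ages. The general form Cox8a made up 79.9% (77.6 to 82.0) of the Cox8a and Cox8b UMIs at P1 and 59.7% (50.5 to 68.4) at P7, and Cox7a2 82.5% (80.1 to 84.7) and 67.7% (59.0 to 75.5) of Cox7a2 and Cox7a1. For Cox6a1 and Cox6a2 the general share was 17.03% (14.6 to 19.7) and 8.51% (3.75 to 16.1), with intervals that overlap. The median barcode had a Cox7a2 share of 83.3% at P1 and 80% at P7 and a Cox8a share of 80% and 63.0%. Among Malat1-poor barcodes alone the P1 and P7 shares were 80.2% and 59.3% for Cox8a, 81.8% and 68.5% for Cox7a2 and 17.6% and 7.61% for Cox6a1. Ckb made up 8.01% (6.87 to 9.28) of the creatine kinase UMIs at P1 and 2.84% (1.05 to 6.09) at P7. The general forms are also found in other cells, Cox8a at 777 and 772 CPM and Cox7a2 at 310 and 356 CPM in Ptprc-positive cells.

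Of the 9 measured G2 and M phase genes 4 were at least 2-fold higher at P1 and none at P7 (median 0.83), beside 16.3% and 4.93% of all genes. With sums of 0 set to 3 counts 2 were (0.46), beside 9.46% of all genes, Ube2c (206 and 81.5 CPM, 1.18, -0.06 to 3.25) and Cenpa (75 and 3 UMIs, 1.11, -0.28 to 3.64). The whole list came to 1298 CPM (1199 to 1403) at P1 against 632 CPM (429 to 897) at P7, where a single barcode held 67.7% of it. Of 3 measured cell cycle inhibitors Cdkn1a (30 and 3 UMIs) and Ccng1 (48 and 2) were under 2-fold, and Cdkn1b had 26 and 0 UMIs.

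Of imprinted and growth genes 3 of 4 were 2-fold higher at P1, beside 16.3% of all genes. With sums of 0 set to 3 counts 2 were, beside 9.46% of all genes, H19 (135 and 2 UMIs, 2.44, 0.88 to 5.82) and Grb10 (73 and 2, 1.56, -0.03 to 4.95). H19 was abundant elsewhere, at 1317 CPM in all other P1 cells and 350 CPM at P7, above the 276 and 40.8 CPM of the cardiomyocytes. Igf2 had 5 and 0 UMIs.

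The study used these libraries to compare hypoxia-inducible factor (HIF) signalling at P1 and P7, above all in the epicardium. In cardiomyocytes 9 of 24 genes of the oxygen sensing and HIF list could be measured. Of these 1, Pdk3 (a pyruvate dehydrogenase kinase, 21 and 0 UMIs), was 2-fold higher at P1 and none at P7 (median -0.08), beside 16.3% and 4.93% of all genes. With sums of 0 set to 3 counts Pdk3 was not. Hif1a stood at 83.8 CPM (60.1 to 114) at P1 and 81.5 CPM (22.2 to 209) at P7 (-0.11, -1.42 to 1.98). Vegfa (vascular endothelial growth factor A) had 12 and 1 UMIs (-0.26, -2.49 to 5.69), Egln1 (prolyl hydroxylase 2, which marks HIF for degradation) 17 and 1 (0.23, -1.90 to 6.16) and Epas1 (HIF-2α) 10 and 0, and Wt1 had 1 and 0. Ldha (lactate dehydrogenase A, a HIF target) was at 1010 and 1182 CPM (-0.24, -0.62 to 0.19). At this depth a 2-fold difference of Hif1a, Vegfa or Egln1 was not detectable.

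Genes that respond to digestion were 2-fold higher at P1 in 1 and at P7 in 1 of 10 measured (median 0.15), Hsp90aa1 (115 and 3 UMIs, 1.73, 0.36 to 4.24) and Ier2 (19 and 4, -1.20, -2.66 to 0.95), beside 16.3% and 4.93% of all genes. Of 80 cytosolic ribosomal protein genes none was higher at P1 and Rpl26 at P7 (median -0.17), beside the same shares of all genes. Dcn (decorin, of fibroblasts) had 45.0 CPM in the P1 and 265 CPM in the P7 cardiomyocytes, against 3480 and 6901 CPM in the other cells.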

How the data were processed

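Reads were aligned by the authors to mm10 (GRCm38) with Cell Ranger 3.1.0 per the submitters' processing notes. The deposited matrices hold UMI counts per gene and barcode, 1 per library, not normalised. They held 7836 barcodes with 63585504 UMIs at P1 and 9077 with 98346195 at P7. 

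Barcodes of 200 to 8000 genes with at most 20% mitochondrial UMIs were kept, and no doublet caller was run. UMI counts were summed over cardiomyocytes per library and scaled to non-mitochondrial UMIs. Log2 ratios had 0.5 counts added to each sum and exact conditional binomial intervals. Levels had exact Poisson and shares Clopper-Pearson intervals. These cover counting error only. The MAST test used by the study treats cells as replicates and was not applied. A gene was measured with at least 20 summed UMIs and called at a 2-fold ratio. Thinned cells were reduced to 1000 non-mitochondrial UMIs. A sum of 0 was replaced by 3 counts for folds, which leave out the counting error of the other sum. Positions and mRNA lengths (longest coding transcript) are from GENCODE M21.

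The members, the 32 gene lists and the alternatives were chosen with earlier results of these data known. The list of proteins made at the endoplasmic reticulum, that of nuclear RNAs (Malat1, Neat1 and others) and the Malat1 split were added after the values were seen. Genes named are the 9 of the choice, the 10 largest ratios in each direction with 50 UMIs or more in either library, up to 4 per list with the largest ratios, those the study names for these data and pairs of isoforms. Genes named beside the Malat1 split, and Des, Eno3, Ldha, Myoz2 and Casq2, were chosen after their values were seen. Alternatives varied the marker share, the mitochondrial limit, other classes' genes, scaling, weighting, depth, counts added and minimum UMIs. Intervals and ratios were tested on simulated counts (python 3.11.15, numpy 2.4.6, scipy 1.17.1, pandas 2.3.3, matplotlib 3.10.9).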

Additional observations from a re-analysis of the deposited data

Results flagged for a closer look

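Barcodes that met every condition but the mitochondrial limit carried cardiomyocyte RNA although they enter no comparison above. There were 17 at P1, with 22.6% to 95.6% mitochondrial UMIs (median 68.6%), and 7 at P7, with 31.2% to 71.3% (median 42.8%). Their medians were 5473 and 854 UMIs, and their contractile shares had medians of 7.11% and 10.5%. At P1 8 of the 17 were Malat1-rich and 8 had Xist, where 12 of 78 and 7 of 78 barcodes within the limit did. At P7 0 of the 7 were Malat1-rich, with 9 Malat1 UMIs in all. Of the genes computed for them, Ttn stood at 15617 CPM at P1 and 26195 CPM at P7, Myh6 at 18816 and 27623 CPM and Atp2a2 at 3663 and 7620 CPM, against 2097 and 306, 4939 and 1141, and 816 and 183 CPM in the cardiomyocytes within the limit. Ttn, Myh6 and Atp2a2 were thus higher at P7 than at P1 in these barcodes, the reverse of those within the limit. The P7 levels rest on 6299 non-mitochondrial UMIs, with 165 of Ttn, 174 of Myh6 and 48 of Atp2a2. Myl7 had 24 UMIs at P1 and 0 at P7.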

How the results depend on the processing

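With 78 and 14 barcodes and 1 library per age, counts limited most ratios, and values at P7 under 61.1 CPM are at most 3 UMIs. No paired analysis was possible because each age has 1 library and the replicate numbers only name the samples. A marker share of 20% left no barcode and gave no value. At 10%, 40 and 22 genes were 2-fold higher at P1 and P7, the shares of cells were 0.200% and 0.0235%, the P1 shares of Myh7 and Myl7 4.59% and 42.4%, and Tnni1 (-0.14) and Rps2 (0.034) turned. A mitochondrial limit of 10% gave P1 shares of 9.08% for Myh7 and 24.7% for Myl7. Without a limit Myh7 was 8.71% at P1 and 34.1% at P7, Myl7 20.3%, and Tbx20 turned to -0.032. A further 10 single-gene ratios moved without a limit. The ratios given above for Myh6, Ttn and Atp2a2 are for barcodes within the limit. In the barcodes over it these genes were higher at P7 than at P1. Allowing at most 1 UMI over 8 genes of other classes gave 9.30% for Myl7 and a median of 1.61 for atrial genes. Barcodes with more Myl2 than Myl7 gave Tnni1 34.8%, Myl7 1.25% and atrial genes 1.56. Malat1-poor barcodes alone, chosen after seeing the data, gave Myh7 9.79%, Myl7 14.7% and Atp2a2 -0.84. Without the 3 deepest P1 barcodes, also chosen after seeing the data, Tnni1 was 34.9%, Myh7 9.50%, Myl7 15.2%, Ttn -0.39 and Atp2a2 -1.02. Mean shares over barcodes were 34.7% for Tnni1 and 6.74% for Myl7. Weighting barcodes equally gave 820 and 374 genes, 1.87 for atrial genes, and Ttn -0.16, Atp2a2 -0.14, Ckb -0.0745 and Hspd1 -0.10. Thinning gave 80 and 37 genes, 0.43 for glycolysis and -0.57 for Atp2a2, on fewer UMIs. Adding 2 counts gave 92 and 336 genes. A minimum of 10 UMIs gave 1200 and 447, of 50 UMIs 183 and 33, and no minimum 1200 and 3325, with 1.64 for atrial genes. Sums of 0 set to 3 counts gave 286 genes at P1. In the Malat1 split the fibroblast marker median turned from 2.53 to -0.78 without the barcode with most fibroblast UMIs and to -0.17 without that and the deepest, where 1 marker was left. Of the other recomputed values, 398 counts, medians and shares and 1708 single-gene ratios moved by no more than their interval or 1.5 times, and 92 single-gene ratios moved further. The causes were not tested.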
